A study of Mus musculus with 12 samples.

Results

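The data described here are 6 RNA-seq libraries of small intestine from mice labelled as lacking Piezo1 in intestinal epithelial cells (CKO), 3 from mice with induced necrotizing enterocolitis (NEC) and 3 from uninjured controls, chosen by their genotype and condition labels from 12 libraries in all. The series holds 4 groups of 3 libraries each, the other two being floxed mice without the knockout (flox), with NEC and without. All mice were C57BL/6J, and what the 4 groups share beyond this strain and tissue is not stated in the labels. NEC is an inflammatory necrosis of the newborn bowel. The study's title places Piezo1 upstream of Ca2+ and the kinase CaMKII in this disease, so the comparison asks how the injured bowel differs from the uninjured one where the epithelial channel is labelled as deleted. The sources used here do not give the Cre driver, how NEC was induced or how old the mice were. Whether each library is a mouse of its own is likewise unstated, so p-values measure the spread between libraries, which may be technical.

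Piezo1 is a channel of the cell membrane that opens under mechanical force and lets Ca2+ into the cell. In the newborn bowel, enterocytes take up milk proteins whole through endocytic receptors and digest them in lysosomes. Around weaning this programme gives way to brush border enzymes for solid food, and Paneth cells, which secrete antimicrobial peptides at the crypt base, mature. Where the mice of this study stood in this change is not known, since their age is not given.

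The authors deposited FPKM (fragments scaled to gene length and library size) in 2 tables, 1 for uninjured and 1 for NEC libraries, so a difference between tables and one between conditions cannot be told apart. FPKM times gene length gave whole reads per gene, and the libraries held 15902125, 15945424 and 16821130 reads in CKO control and 15943592, 15022468 and 14795815 in CKO NEC. Reads of all 12 libraries were put on 1 scale, and every level below is a rescaled FPKM. Changes are differences of log2 (FPKM + 1), NEC less control, with their standard error (SE), and they understate the change of genes near or under 1 FPKM. Adjusted p-values are limma's after Benjamini-Hochberg adjustment over all 13355 genes with at least 1 FPKM in at least 3 of the 6 libraries, and a gene is said to have risen or fallen where that value was under 0.05.

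Between uninjured and NEC knockout bowel, 2332 genes (17.5% of those tested) rose and 2727 (20.4%) fell, together 37.9%. The counts of gene lists below are to be read beside these shares. Genes of cell division, collagen matrix, vessels and mucosal defence were among the rises, and genes of suckling-age protein uptake, interferon response and antigen presentation among the falls. Changes of at least 2-fold numbered 651 (4.87%) higher and 932 (6.98%) lower, and the median change over all genes was -0.02, with a median SE of 0.17. The values of the 2 groups did not overlap for 3345 genes (25.0%) that were higher and 3824 (28.6%) that were lower. Among them are 341 genes that passed the filter through NEC only and 202 through the controls only, whose groups could not overlap. Without those genes, 2038 rose and 2550 fell of 12812. Groups of named genes that do not overlap are to be read beside the shares of 25.0% and 28.6%. The split depends on the scale: with total reads as the scale the median of all genes moved up by 0.27 and 4264 genes rose and 1528 fell, and with the FPKM as deposited it moved up by 0.12 and 3140 rose and 2062 fell. Leaving out CKO NEC library 1 gave 1250 rises, and leaving out CKO NEC library 2 gave 1276. The falls numbered 1690 without CKO control library 2 and 1749 without CKO NEC library 2.

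**Figure D1:**
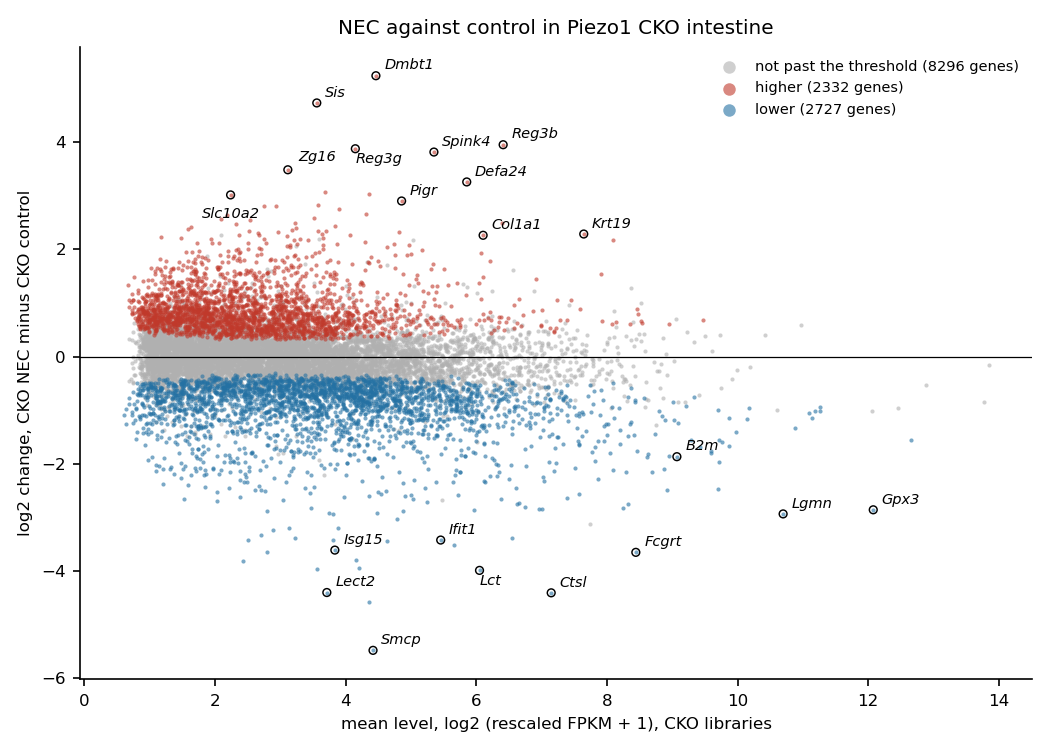
Mean level of each of 13355 genes over the CKO groups (horizontal axis, log2 of rescaled FPKM + 1) against its log2 change from CKO control to CKO NEC (vertical axis); red genes rose, blue genes fell, grey genes did not pass the threshold. Dmbt1 and Sis stand at the top, and Smcp, Lect2, Ctsl and Lct at the bottom, while the 2332 rises and 2727 falls spread over the whole range of levels.

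Single libraries stood apart within their group. On the first principal component of the 6 libraries (68.0% of the variance) the NEC libraries scored 52.3, 42.9 and 27.6 and the controls -34.9, -43.0 and -44.9, so that CKO NEC library 3 was the nearest to the controls. CKO control library 3 was apart on the second component (-30.2 against 8.43 and 20.2 in the other controls), with the fetal transcript H19 at 226, 204 and 11.6 FPKM in controls 1 to 3. Smooth muscle genes were low in CKO control library 2 and in CKO NEC library 3. Gata4, a factor of the proximal but not the distal small intestine, stood at 9.29, 8.37 and 14.5 FPKM in the controls and at 13.3, 0.309 and 0.885 FPKM in the NEC libraries. The fatty acid binder Fabp1 followed it, at 329, 263 and 105 FPKM in the controls and 576, 2.29 and 6.36 FPKM in the NEC libraries. In CKO NEC library 1 Gata4 was thus at control level and Fabp1 above every control, in libraries 2 and 3 both were far under the controls, neither passed the threshold (adjusted p of 0.121 and 0.198), both did without CKO NEC library 1, and the part of the sampled stretch of bowel in the results below was not tested. By Xist and Y-linked reads CKO NEC library 2 was female and the other 5 were male.

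Epithelial identity was present throughout. The homeobox factor Cdx2 stood at 139.7, 141 and 142 FPKM in the controls and 117, 105 and 127 in NEC (adjusted p = 0.167), and the microvillus protein Vil1 at 380.3, 357 and 433 and 289, 274 and 349 (adjusted p = 0.168). Of 10 defining epithelial genes, 1 rose and 2 fell, against 17.5% and 20.4% of all genes. One of the 2 falls was at least 2-fold. The lowest change of the list was -1.14, and 5 changes lay above 0 and 5 below. The riser was the keratin gene Krt19, at 103, 114 and 55.3 FPKM in the controls and 524, 332 and 448 FPKM in NEC, with no overlap (log2 change of 2.29 ± 0.31 SE, adjusted p = 0.00350). The list's median of -0.08 was 0.24 with total reads, 0.37 with quantile normalization and 0.06 with the deposited FPKM as the scale.

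Reads of Piezo1 (ENSMUSG00000014444, chromosome 8, 122481698 to 122551329, GRCm38) were present in every library. It stood at 1.72, 1.04 and 0.933 FPKM in the CKO controls and at 4.88, 5.04 and 2.99 FPKM in CKO NEC, so the lowest NEC library lay above the highest control. The change was 1.24 ± 0.21 SE (adjusted p = 0.00611). In flox libraries the gene stood at 1.39, 1.45 and 1.09 FPKM without injury and 6.62, 6.52 and 6.12 FPKM with NEC, a change of 1.68, and the responses of the genotypes were not told apart by the test of their difference (-0.45 ± 0.25 SE, adjusted p = 0.331). The CKO controls overlapped the flox controls, so the uninjured libraries did not show the labelled loss. The files do not say which exon was removed, whole tissue holds cells other than epithelium, and in bulk tissue fewer cells of a type and less RNA per cell cannot be told apart.

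Among mechanosensitive channels, 5 of 7 tested members rose and 0 fell, against a background of 17.5% higher, and the median change was 0.78. Tmem63a, a channel gated by membrane stretch, went from 5.88, 4.40 and 4.19 FPKM to 10.5, 10.3 and 9.43 FPKM without overlap (0.94 ± 0.14 SE, adjusted p = 0.00421). The channel kinase Trpm7 did not pass, at 17.6, 20.9 and 15.4 FPKM in the controls and 14.6, 15.0 and 17.99 FPKM in NEC (-0.16 ± 0.15 SE, adjusted p = 0.418). Of the list's 15 genes, 8 did not reach the filter. The count of rises was 3 without CKO control library 2 or 3 and 3 of 6 tested without CKO NEC library 1 or 2.

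Genes of Ca2+ and CaMKII signalling went both ways, with 7 of 31 tested members higher and 8 lower (median of -0.04). The shares over all genes were 17.5% and 20.4%. With total reads as the scale 11 members were higher and 4 lower (median of 0.26). The genes of the kinase subunits did not pass the threshold. Camk2d stood at 4.87, 5.49 and 7.32 FPKM in the controls and 7.67, 7.77 and 9.50 in NEC (0.44 ± 0.16 SE, adjusted p = 0.0672), Camk2g changed by 0.20 ± 0.13 (adjusted p = 0.247) and Camk2b by 0.20 ± 0.28 (adjusted p = 0.599), and Camk2a was below the filter. The value of Camk2d passed without CKO control library 3 and in 5 of 13 other alternatives (total reads, the deposited FPKM, the replicate block, library weights and 1 fit of all 12 libraries), that of Camk2b without CKO control library 3, and that of Camk2g with total reads as the scale. Camk2n1, an inhibitor protein of CaMKII, fell from 55.9, 51.0 and 56.5 FPKM to 12.2, 18.97 and 23.9 FPKM (-1.57 ± 0.23 SE, adjusted p = 0.00413). Rcan1, a regulator of the Ca2+-dependent phosphatase calcineurin, fell from 48.7, 65.3 and 57.0 FPKM to 11.7, 19.2 and 22.2 FPKM (-1.67 ± 0.24 SE, adjusted p = 0.00392). For both genes each NEC library lay under each control. Orai3, a store-operated Ca2+ channel, fell from 16.2, 15.9 and 17.2 to 5.53, 8.94 and 8.40 FPKM (-1.04 ± 0.17 SE, adjusted p = 0.00577). The list held 1 to 5 rises and 3 to 6 falls when any 1 library was left out, the fewest (1 and 3) without CKO control library 2, with 1 rise without CKO NEC library 2 and 3 falls without CKO NEC library 1.

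The disaccharidases showed opposite changes. Sis (sucrase-isomaltase, chromosome 3, 72888557 to 72967863) is the brush border enzyme for sucrose, and Lct (lactase, chromosome 1, 128284756 to 128328318) the one for milk sugar. Sis stood at 1.116, 0.933 and 1.36 FPKM in the controls and at 115, 40.7 and 36.2 FPKM in NEC, a change of 4.73 ± 0.41 SE (adjusted p = 0.00121). Lct stood at 155, 151 and 366 FPKM in the controls and at 43.2, 4.95 and 7.30 FPKM in NEC (-3.99 ± 0.74 SE, adjusted p = 0.00753). Neither gene's groups overlapped, and CKO NEC library 1 was the highest of the NEC libraries for both. The maltase gene Mgam rose as well, from 75.7, 79.9 and 59.6 to 215, 171 and 206 FPKM (1.45 ± 0.18 SE, adjusted p = 0.00257).

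CDX2 is an intestinal factor that binds the Sis promoter. These are the 250 bases before the start of each gene from RefSeq (GRCm38.p6, both genes on the minus strand, 5′ to 3′), shown because the enzymes moved in opposite directions. Capitals mark the letters TTTATNG, searched on both strands, a form of the CDX2 motif.
Sis, chr3:72967864-72968113: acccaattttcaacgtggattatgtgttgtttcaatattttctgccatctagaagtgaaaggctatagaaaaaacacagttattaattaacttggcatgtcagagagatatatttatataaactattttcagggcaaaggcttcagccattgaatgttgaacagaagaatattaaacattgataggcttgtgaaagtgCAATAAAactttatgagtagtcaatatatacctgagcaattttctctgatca
Lct, chr1:128328319-128328568: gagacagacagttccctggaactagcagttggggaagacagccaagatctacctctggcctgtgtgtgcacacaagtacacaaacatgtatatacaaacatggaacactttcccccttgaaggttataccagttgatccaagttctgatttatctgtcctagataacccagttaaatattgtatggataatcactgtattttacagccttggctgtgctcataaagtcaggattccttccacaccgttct
The Sis window holds 1 match, on the opposite strand, at position -52 from the gene's start, and the Lct window holds 0. The letters occur in the window (250 bases before to 50 after the start) of 12.5% of 27025 genes. The Sis match does not overlap either of the 2 matches to the TATA box letters TATAAA in that window. Other forms of the motif were not searched, so 0 matches in the Lct window does not show that CDX2 has no site there. A match is a description of the sequence, and binding was not measured.

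Genes by which suckling enterocytes take up and digest milk protein fell together: 14 of 17 tested members fell and 0 rose, against 20.4% of all genes, with a median of -1.78. Fcgrt, the receptor that carries maternal IgG across the epithelium, stood at 1124, 1077 and 1462 FPKM in the controls and 75.2, 87.4 and 132 FPKM in NEC (-3.65 ± 0.26 SE, adjusted p = 0.000901). The lysosomal protease cathepsin L, Ctsl, stood at 556, 606 and 743 FPKM in the controls and 18.6, 28.3 and 45.0 FPKM in NEC (-4.41 ± 0.31 SE, adjusted p = 0.000873). In both genes the highest NEC library lay far under the lowest control. Lgmn, a lysosomal asparaginyl protease, was among the most abundant transcripts of the controls at 3539.9, 4459 and 4341 FPKM and stood at 185, 815 and 1008 FPKM in NEC (-2.93 ± 0.62 SE, adjusted p = 0.0111). Of the endocytic receptor complex, Amn fell from 621, 586 and 731 to 102, 138 and 208 FPKM (-2.16 ± 0.28 SE, adjusted p = 0.00292) and the clathrin adaptor Dab2 from 131, 156 and 159 to 17.0, 51.3 and 53.8 FPKM (-2.0005 ± 0.41 SE, adjusted p = 0.0104). The endolysosomal channel Mcoln3 and Ass1, the arginine synthesis enzyme of suckling enterocytes, changed by -2.31 and -2.74 (adjusted p of 0.00512 and 0.00208). CKO NEC library 1 was the lowest of the NEC libraries for each of these 7 genes. The count was 11 to 14 whichever library was left out and 11 to 14 under each of the other scalings. One of the falls, Lrp2, passed the filter through the controls only, and 4 of the list's 21 genes were not tested. Of the fetal transcripts, Afp fell and H19 did not pass. Afp stood at 125, 186 and 14.9 FPKM in the controls and 0.287, 1.895 and 6.37 FPKM in NEC (-4.58 ± 0.99 SE, adjusted p = 0.0119). H19 stood at 226, 204 and 11.6 FPKM in the controls and 10.03, 16.2 and 10.9 FPKM in NEC (adjusted p = 0.0775). For H19, CKO control library 3 lay inside the range of the NEC libraries. The gene passed without that library, with library weights and in 1 fit of all 12 libraries. Of 10 hepatocyte genes 3 were tested and fell (Ttr, Fga and Fgb, the last having passed the filter through the controls only), and the list summed to 111 to 274 FPKM in the controls and 14.8 to 60.2 FPKM in NEC, most of it Ttr. Albumin, Alb, the defining gene of that cell, stood at 0.0574, 0.0892 and 0 FPKM in the controls and 0.321, 0.0737 and 0.0835 FPKM in NEC. The labels give no age for either group, so age and condition cannot be told apart.

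Enterocyte transcription factors went both ways. Maf, a factor of the suckling enterocyte, stood at 52.4, 58.0 and 79.5 FPKM in the controls and 19.5, 29.5 and 34.8 FPKM in NEC (-1.17 ± 0.25 SE, adjusted p = 0.0114). Over 18 enterocyte factors, 3 rose and 4 fell, near the shares over all genes (17.5% and 20.4%). The lipid sensors Ppara and Pparg were among the rises, with changes of 1.23 ± 0.22 and 1.124 ± 0.18 (adjusted p of 0.00628 and 0.00494). The list held 7 rises and 4 falls with total reads as the scale. The nuclear receptor Hnf4a did not pass, at 143, 150.4 and 155 FPKM in the controls and 109.9, 85.3 and 150.3 FPKM in NEC (adjusted p = 0.177).

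**Figure D2:**
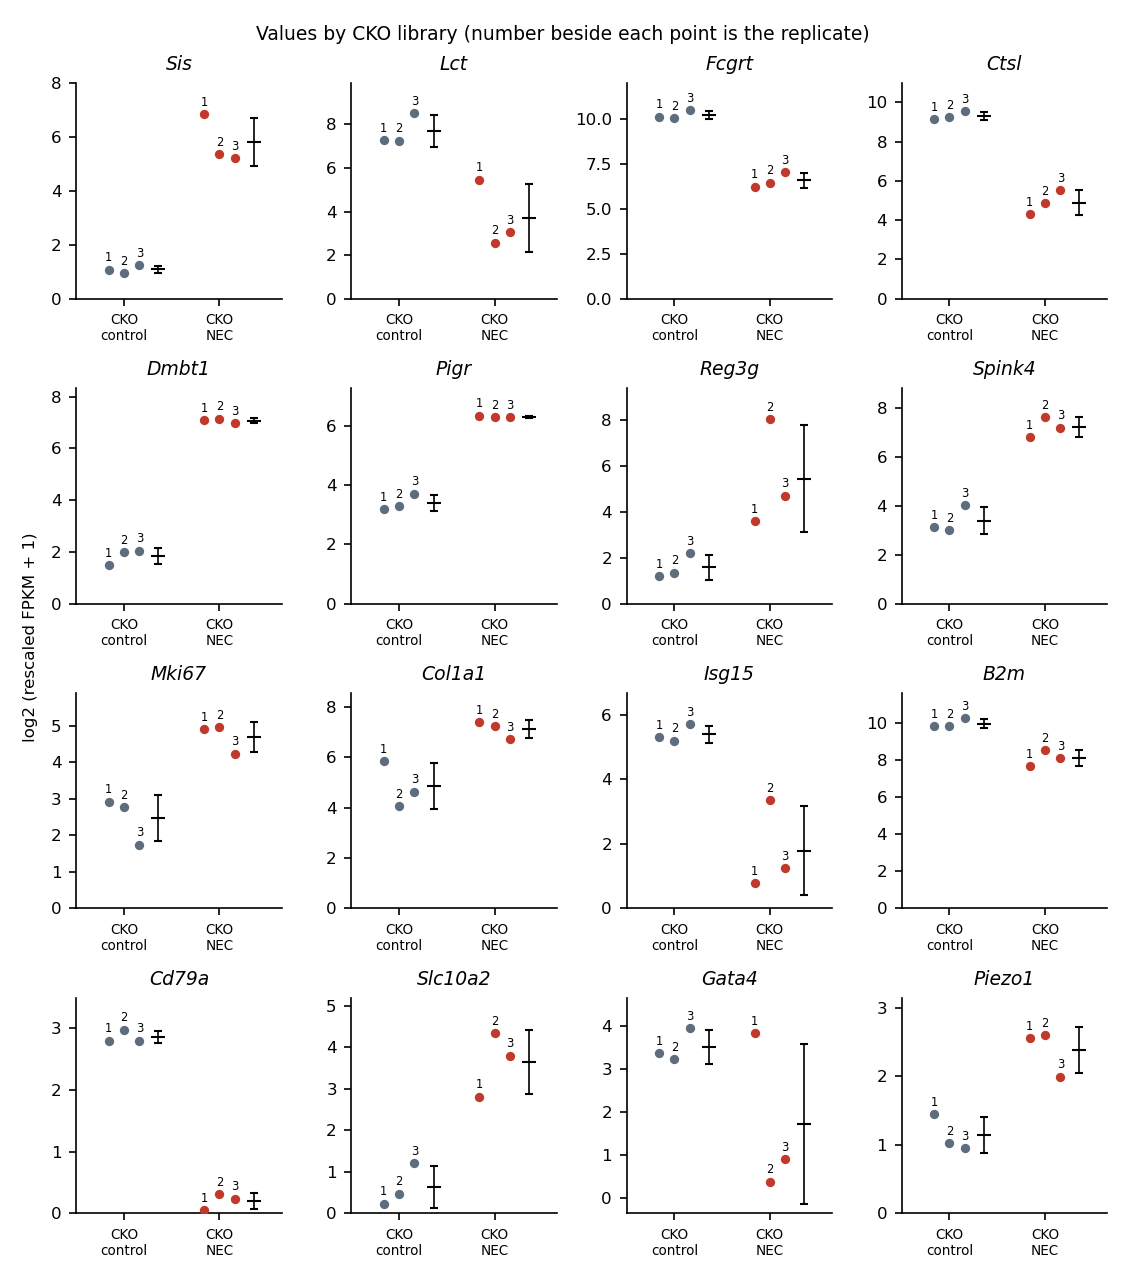
Level of 16 genes in each CKO library (vertical axes, log2 of rescaled FPKM + 1); each point is a library with its replicate number, and the bar beside each group is its mean with the SD of 3 libraries. Sis, Dmbt1, Pigr, Spink4, Mki67, Col1a1, Slc10a2, Reg3g and Piezo1 are higher in all 3 NEC libraries than in any control, Lct, Fcgrt, Ctsl, Isg15, B2m and Cd79a are lower, and Gata4 is low in NEC libraries 2 and 3 only.

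Brush border and fat handling genes were lower more often than higher. Of 25 genes of enterocyte digestion and the brush border, 2 rose (Sis and Mgam) and 9 fell, with a median of -0.53 (3 and 3 with quantile normalization). The alkaline phosphatase Alpi stood at 1501, 1408 and 1971 FPKM in the controls and 339, 504 and 764 FPKM in NEC (-1.66 ± 0.34 SE, adjusted p = 0.0101), and the intermicrovillar adhesion protein Cdhr5 at 1301, 1257 and 1668 and 294, 516 and 700.0 FPKM (-1.56 ± 0.35 SE, adjusted p = 0.0134, but -0.76 and not past the threshold with quantile normalization). Among 21 tested lipid absorption genes, 3 rose and 10 fell (median of -0.74), and 4 rose and 4 fell with quantile normalization (median of -0.29). The apolipoprotein Apoc3 fell from 892, 869 and 1753 to 247, 144 and 210.4 FPKM (-2.50 ± 0.35 SE, adjusted p = 0.00353), and Mogat2, which rebuilds absorbed fat, from 229, 206 and 186 to 99.6, 65.2 and 109.6 FPKM (-1.20 ± 0.22 SE, adjusted p = 0.00764). Cd36, a fatty acid translocase, went the other way, from 4.64, 4.44 and 5.66 to 15.5, 15.3 and 11.9 FPKM (1.36 ± 0.15 SE, adjusted p = 0.00195). The lipid falls numbered 6 without CKO control library 1, CKO control library 3 or CKO NEC library 2.

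Iron uptake genes fell. Slc11a2, the apical importer of iron, stood at 126, 158 and 92.0 FPKM in the controls and 11.1, 24.1 and 27.3 FPKM in NEC (-2.59 ± 0.35 SE, adjusted p = 0.00326), and Slc40a1, the basolateral exporter, at 109.7, 149 and 169 and 17.4, 48.7 and 56.1 FPKM (-1.92 ± 0.42 SE, adjusted p = 0.0129). Both genes were lowest in CKO NEC library 1. They are also the 2 genes that fell in the proximal small intestine list, which holds Gata4 as well. Of its 7 tested members 2 fell and 0 rose, against 20.4% and 17.5% of all genes. All 7 changes lay below 0, with a median of -1.80. The list's level was -0.11, -1.51 and -1.31 in NEC libraries 1 to 3, as the median log2 difference from the control mean. The part of the sampled stretch of bowel in the iron values was not tested. The heme-degrading enzyme Hmox1 changed by -1.62 ± 0.32 (adjusted p = 0.00876). Of 18 tested genes of metal handling, 1 rose and 8 fell, and 4 to 7 fell when any 1 library was left out, 4 of them without CKO control library 2. With total reads 5 fell and with quantile normalization 4 did.

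Genes of bile acid handling went both ways. Of 11 tested, 3 carriers rose and 2 genes fell, the hormone Fgf15 (-0.82, a call that held in 2 of 6 fits with a library left out) and the repressor Nr0b2, which passed the filter through the controls only (median of -0.15, 0.18 with total reads and 0.34 with quantile normalization as the scale). Without CKO control library 2 or 3 there were 0 falls. Of 10 distal small intestine genes, a list that shares Slc10a2, Fabp6 and Fgf15 with it, 2 rose and 4 fell (median of -0.61), with 3 and 1 with total reads, 3 and 0 with quantile normalization and 1 or 0 falls without CKO control library 2 or 3 or CKO NEC library 1 or 2. Slc10a2, the importer of bile acids at the ileal brush border, stood at 0.178, 0.386 and 1.30 FPKM in the controls and 6.04, 19.3 and 12.9 FPKM in NEC (3.02 ± 0.41 SE, adjusted p = 0.00337), and the bile acid binder Fabp6 at 17.1, 31.1 and 58.7 and 169, 134 and 269 FPKM (2.49 ± 0.45 SE, adjusted p = 0.00667). The exporter Abcc3 rose from 1.17, 0.514 and 0.838 to 6.503, 5.14 and 5.19 FPKM (1.85 ± 0.17 SE, adjusted p = 0.00134). The part of the sampled stretch of bowel in the rises of Slc10a2 and Fabp6 was not tested. The cytochrome P450 genes Cyp2c65 and Cyp2c55 and the carboxylesterase gene Ces2c rose by 2.80 ± 0.29, 1.95 ± 0.39 and 2.12 ± 0.32 (adjusted p of 0.00190, 0.00939 and 0.00418). Their controls stood between 0.0673 and 3.06 FPKM and their NEC libraries between 2.77 and 17.0 FPKM. Of 23 tested genes of drug and xenobiotic metabolism, 7 rose and 1 fell (median of 0.46), against 17.5% and 20.4% of all genes. One of the 7, Cyp4b1, passed the filter through NEC only. The rises numbered 4 without CKO control library 1 and 3 without CKO control library 2 or CKO NEC library 1 or 3. Without CKO NEC library 3 there were 3 falls.

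Several secreted products of mucosal defence rose. Dmbt1, a scavenger receptor protein of the mucus that binds bacteria (chromosome 7, 131032053 to 131121630), stood at 1.80, 2.93 and 3.12 FPKM in the controls and 135, 141 and 125 FPKM in NEC, the largest rise of all genes tested (5.24 ± 0.17 SE, adjusted p = 8.13e-05). Pigr, the receptor that carries IgA into the lumen, stood at 8.14, 8.79 and 12.1 FPKM in the controls and 79.8, 76.7 and 76.8 FPKM in NEC (2.90 ± 0.16 SE, adjusted p = 0.000873). The NEC libraries were close to one another for both genes. They were far apart for the bactericidal lectins: Reg3g stood at 11.1, 263 and 25.1 FPKM in NEC libraries 1 to 3 and at 1.27, 1.55 and 3.56 FPKM in the controls (3.88 ± 1.02 SE, adjusted p = 0.0236). Reg3b stood at 52.0, 1242 and 156 FPKM in NEC and at 7.70, 19.9 and 14.3 FPKM in the controls (3.95 ± 1.04 SE, adjusted p = 0.0230). CKO NEC library 2 held most of both, and both calls were lost without CKO control library 1, that of Reg3b also without CKO control library 3 and that of Reg3g without CKO control library 2. Of 24 antimicrobial and acute phase genes, 9 were tested, 6 rose and 1 fell, and 3 of the 6 (Reg3a, Duox2 and Nos2) passed the filter through NEC only.

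Goblet cell genes rose in 7 of 13 tested members and fell in 0 (median of 1.06, 6 to 10 rises when any 1 library was left out). Spink4, a secreted goblet cell peptide, went from 7.74, 7.01 and 15.3 FPKM to 109.7, 196 and 145 FPKM (3.81 ± 0.32 SE, adjusted p = 0.00118). Zg16, a lectin of the mucus, was listed at 0 in controls 1 and 2, at 6.76 FPKM in CKO control library 3 and at 27.1, 25.6 and 13.5 FPKM in NEC (3.48 ± 0.77 SE, adjusted p = 0.0131). The secretory lineage factors Atoh1 and Spdef rose by 1.35 ± 0.24 and 1.22 ± 0.24 (adjusted p of 0.00681 and 0.00953). The main mucin, Muc2, stood at 26.8, 30.9 and 31.1 FPKM in the controls and 19.4, 107 and 55.7 FPKM in NEC and did not pass (0.71 ± 0.53 SE, adjusted p = 0.322). CKO NEC library 1 lay under the controls and libraries 2 and 3 above them, and without library 1 the gene passed.

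Paneth cell genes had a median of 1.76 over 9 tested of 16 members, with 4 higher and 0 lower. The alpha-defensin Defa24 stood at 10.9, 7.48 and 41.2 FPKM in the controls and 179, 194 and 105 FPKM in NEC (3.26 ± 0.57 SE, adjusted p = 0.00639). Alpha-defensins are a family of near-identical copies, so reads may be divided among them. CKO control library 3 was the highest control. The list's level there was 1.38, as the median log2 difference from the control mean, against 1.33 and 0.92 in CKO NEC libraries 2 and 3 and 3.02 in CKO NEC library 1. The chloride channel regulator Clca4a, another of the largest rises, was likewise highest among the controls in library 3, at 1.63, 0.765 and 9.47 FPKM in the controls and 15.6, 36.9 and 45.5 FPKM in NEC (3.08 ± 0.68 SE, adjusted p = 0.0127). The lysozyme gene Lyz1 of Paneth cells stood at 0.213, 0.0552 and 5.95 and 37.1, 10.3 and 6.04 FPKM (adjusted p = 0.0372), and its call was lost without CKO control library 1 or 2 or CKO NEC library 1 or 2. The count of rises was 2 without CKO control library 1 or 2 and 1 of 8 tested without CKO NEC library 1 or 2, and 1 of the 4, Mmp7, passed the filter through NEC only.

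Enteroendocrine hormones went both ways, with 1 of 12 tested genes higher and 4 lower. Nts, the gene of neurotensin, fell from 133, 149 and 177 to 17.5, 36.4 and 49.7 FPKM (-2.23 ± 0.35 SE, adjusted p = 0.00492) and secretin, Sct, from 55.8, 48.4 and 67.4 to 13.7, 18.99 and 31.8 FPKM (-1.44 ± 0.29 SE, adjusted p = 0.00987). Gcg, which encodes the glucagon-like peptides, rose from 5.53, 1.91 and 5.74 to 17.4, 26.7 and 31.7 FPKM (2.34 ± 0.36 SE, adjusted p = 0.00460). The groups of these genes did not overlap, as held for 25.0% (higher) and 28.6% (lower) of all genes tested.

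Cell division genes were higher: 21 of 25 rose and 0 fell, with a median of 1.56, and the count was 19 to 21 whichever library was left out. Mki67, the nuclear marker of cycling cells, stood at 6.58, 5.82 and 2.35 FPKM in the controls and 29.0, 30.1 and 17.8 FPKM in NEC (2.22 ± 0.34 SE, adjusted p = 0.00446). Cdc20, an activator of the anaphase-promoting complex, stood at 5.61, 3.88 and 1.92 and 30.1, 25.6 and 23.2 FPKM (2.58 ± 0.29 SE, adjusted p = 0.00200). CKO control library 3 was the lowest control for both, and no control reached the lowest NEC library. Myc, a growth regulator and Wnt target, rose from 4.70, 3.72 and 4.42 to 18.3, 13.1 and 11.6 FPKM (1.52 ± 0.18 SE, adjusted p = 0.00233).

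Crypt stem cell and Wnt target genes rose in 11 of 16 tested members and fell in 1, with a median of 0.69. Lgr5 and Ephb3 passed the filter through NEC only, and 9 of the other 14 rose. The stem cell regulator Lrig1 rose by 1.68 ± 0.25 (adjusted p = 0.00418). Lgr5, the Wnt-amplifying receptor of the stem cell, stood at 0.903, 0.781 and 0.411 FPKM in the controls and 2.88, 2.89 and 4.10 FPKM in NEC. Olfm4, another crypt marker, did not pass, at 28.6, 33.9 and 19.6 FPKM in the controls and 65.9, 10.04 and 13.4 FPKM in NEC (adjusted p = 0.699). The count of rises was 5, 6 and 7 of 14 tested without CKO NEC library 1, 2 and 3. Slc12a2, the basolateral chloride importer of secreting crypt cells, rose from 11.7, 12.1 and 9.80 to 55.5, 44.5 and 47.5 FPKM (2.04 ± 0.14 SE, adjusted p = 0.000873), and the water channel Aqp1 from 14.5, 12.9 and 7.89 to 70.9, 47.1 and 67.3 FPKM (2.32 ± 0.25 SE, adjusted p = 0.00195). Over 25 tested ion and fluid transport genes, 10 rose and 3 fell, 1 of the 10, Kcnn4, having passed the filter through NEC only, and 6 rose without CKO NEC library 1.

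Matrix and vessel genes rose. Of 22 fibroblast and matrix genes, 20 rose and 0 fell (median of 1.48, 14 to 21 rises when any 1 library was left out). The collagen gene Col1a1 stood at 57.3, 15.7 and 24.0 FPKM in the controls and 168, 150.4 and 104 FPKM in NEC (2.26 ± 0.44 SE, adjusted p = 0.00855), and fibronectin, Fn1, at 6.35, 2.69 and 4.91 and 32.2, 31.6 and 15.9 FPKM (2.28 ± 0.34 SE, adjusted p = 0.00418). The fibroblast receptor Pdgfra rose less, from 8.19, 5.14 and 5.17 to 11.4, 14.01 and 10.8 FPKM (0.89 ± 0.19 SE, adjusted p = 0.0118). Of 16 tested endothelial genes, 13 rose and 0 fell (median of 0.74), 1 of the 13, Prox1, having passed the filter through NEC only, among them the cadherin Cdh5 (0.94 ± 0.20 SE) and the lymphatic receptor Lyve1, from 4.21, 2.65 and 3.66 to 17.5, 12.8 and 12.6 FPKM (1.76 ± 0.18 SE, adjusted p = 0.00187). The endothelial count was 8 without CKO control library 2 or 3, 7 of 15 tested without CKO NEC library 1 and 8 of 15 without CKO NEC library 2.

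Smooth muscle moved with single libraries. Of 13 tested genes 2 rose and 0 fell (median of 0.95), and the list's level was 0.41, -0.99 and 0.47 in controls 1 to 3 and 1.61, 1.37 and 0.05 in NEC libraries 1 to 3, as the median log2 difference from the control mean. Myh11, the smooth muscle myosin, stood at 72.2, 20.1 and 62.8 FPKM in the controls and 246, 203 and 56.2 FPKM in NEC (adjusted p = 0.0899). Its CKO NEC library 3 lay inside the range of the controls. Without that library 8 of 13 genes rose, Myh11 among them. Without CKO control library 1 the number was 1, and without CKO control library 2, CKO NEC library 1 or CKO NEC library 2 the number was 0. CKO NEC library 3 was also the lowest NEC library in the fibroblast list (0.97 against 1.75 and 1.61), and CKO control library 2 the lowest control (-0.54 against 0.54 and -0.05). The muscle and matrix lists thus shared their lowest library in each group. CKO control library 3 was the highest control for muscle (0.47) and lay between the other controls for matrix (-0.05). The part of the muscle layer in the matrix result was not tested. Enteric neuron and glia genes had a median of 0.24, with 1 of 13 tested genes higher and 1 lower. The lower gene, S100b, passed the filter through the controls only, so its groups had to differ and its test adds no support.

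**Figure D3:**
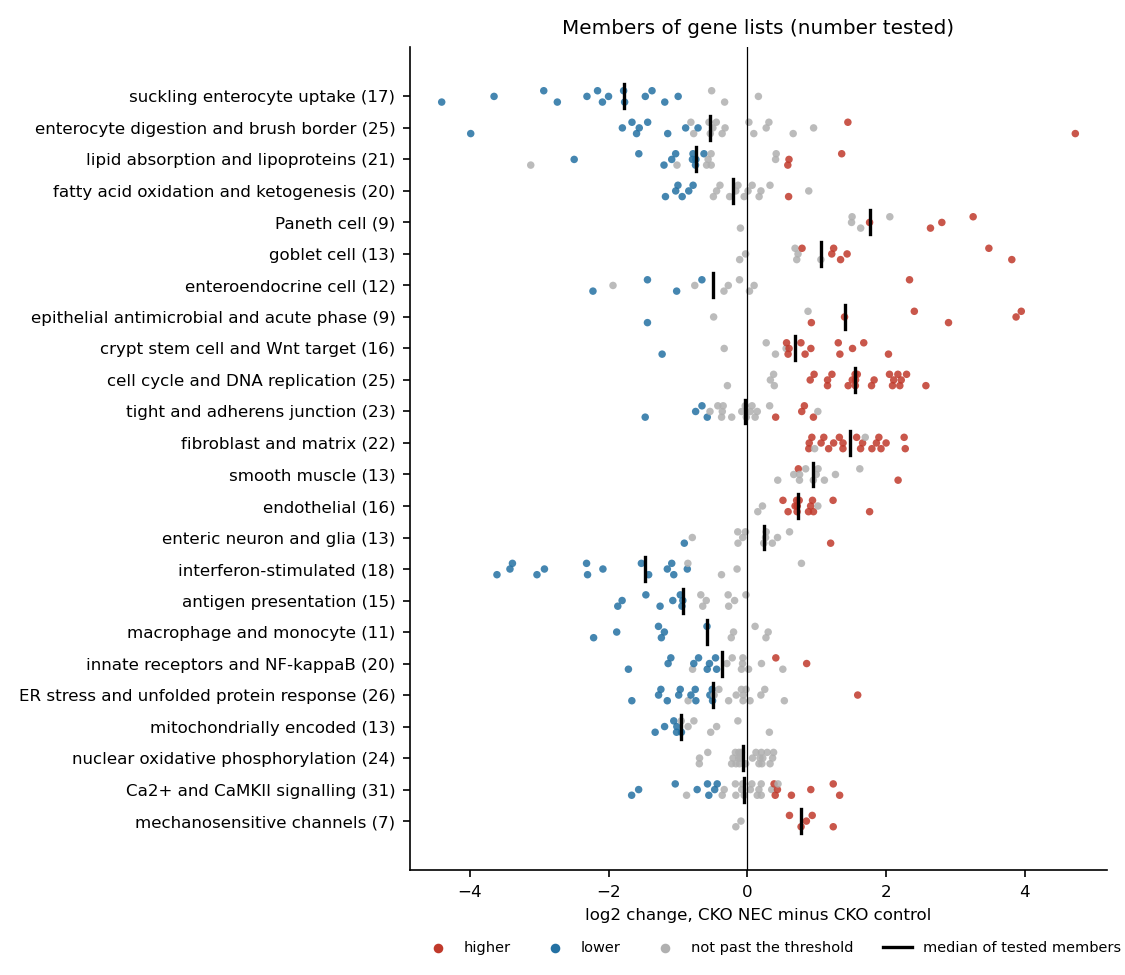
Log2 change from CKO control to CKO NEC (horizontal axis) of each tested member of 24 gene lists (rows, with the number tested); red members rose, blue members fell, grey members did not pass, and the black bar is the median. All matrix and endothelial members and all but 1 of the cell cycle members lie to the right of 0. All antigen presentation members lie to the left, as do all but 1 of the suckling uptake and all but 1 of the interferon members. Junction, Ca2+ and nuclear oxidative phosphorylation members lie on both sides.

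Interferon-stimulated genes, the antiviral response programme, fell in 14 of 18 tested members and rose in 0, against 20.4% of all genes, with a median of -1.47. Isg15, a ubiquitin-like antiviral protein (chromosome 4, 156199424 to 156200818), stood at 38.5, 35.7 and 51.2 FPKM in the controls and 0.711, 9.20 and 1.38 FPKM in NEC (-3.61 ± 0.61 SE, adjusted p = 0.00573). Ifit1, which binds viral RNA, stood at 144, 153 and 109 and 6.18, 22.3 and 10.9 FPKM (-3.42 ± 0.40 SE, adjusted p = 0.00222), and its neighbour Ifit3 at 34.6, 25.4 and 20.3 and 0.616, 4.94 and 0.822 FPKM (-3.39 ± 0.48 SE, adjusted p = 0.00380). Irf7, the factor that amplifies the response, fell from 81.9, 62.9 and 81.9 to 4.51, 13.2 and 9.20 FPKM (-3.03 ± 0.33 SE, adjusted p = 0.00195). CKO NEC library 2 was the highest NEC library for all 4 genes and stayed under every control. The count was 12 to 17 whichever library was left out and 13 or 14 under each of the other scalings, and 5 of the 23 genes were below the filter.

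The promoters of 3 of these genes follow, 250 bases before the gene's start from RefSeq (GRCm38.p6, 5′ to 3′ on the strand of the gene, minus for Isg15 and plus for the others), because most members that fell hold the same letters there. Capitals mark the core letters of the interferon-stimulated response element, GAAA, any 2 bases and GAAA again, searched on both strands.
Isg15, chr4:156200819-156201068: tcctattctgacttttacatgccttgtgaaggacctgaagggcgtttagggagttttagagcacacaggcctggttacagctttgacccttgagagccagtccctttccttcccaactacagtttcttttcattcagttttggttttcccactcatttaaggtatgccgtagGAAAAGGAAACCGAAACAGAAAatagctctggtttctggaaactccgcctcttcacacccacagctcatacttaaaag
Ifit1, chr19:34640639-34640888: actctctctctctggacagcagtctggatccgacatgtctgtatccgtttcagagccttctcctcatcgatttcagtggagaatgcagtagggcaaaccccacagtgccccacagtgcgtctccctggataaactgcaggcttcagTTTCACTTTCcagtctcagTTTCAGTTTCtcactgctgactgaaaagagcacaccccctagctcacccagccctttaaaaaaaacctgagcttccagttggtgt
Ifit3, chr19:34583279-34583528: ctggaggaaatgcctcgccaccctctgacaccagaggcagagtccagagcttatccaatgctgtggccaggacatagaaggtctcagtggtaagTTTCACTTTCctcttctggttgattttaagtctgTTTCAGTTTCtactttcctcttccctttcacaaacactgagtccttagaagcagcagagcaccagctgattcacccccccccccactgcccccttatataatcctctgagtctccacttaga
The Isg15 promoter holds 3 overlapping matches, the first at -78 and the last at -66 from the gene's start. Ifit1 holds 2, at -104 and -85, and Ifit3 holds 2, at -156 and -122, all of these on the opposite strand. Over the list, 12 of the 14 genes that fell had a RefSeq window, and 10 of the 12 windows held the letters, all but those of Irf7 and Oasl2. The 5 other members with a window held it in 3, and over 27025 genes the share was 3.99%. No match in the list overlapped a TATAAA. The element is known from such genes, and a match describes the sequence, not a site or a cause.

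Antigen presentation genes fell in 8 of 15 tested members and rose in 0 (median of -0.93). B2m, the light chain of class I molecules, stood at 914, 905 and 1231 FPKM in the controls and 203, 370.2 and 277 FPKM in NEC (-1.87 ± 0.28 SE, adjusted p = 0.00418), and Tapbp, which loads peptides onto them, at 104, 98.4 and 132 and 18.3, 56.1 and 28.4 FPKM (-1.80 ± 0.37 SE, adjusted p = 0.0103). The class I heavy chain gene H2-D1, one of a family of similar copies, changed by -1.46 ± 0.33 (adjusted p = 0.0134). CKO NEC library 2 was again the highest NEC library for B2m and Tapbp, and without it 13 of 15 genes fell.

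B cell genes were low in NEC. Cd79a, part of the B cell receptor, stood at 5.95, 6.84 and 5.93 FPKM in the controls and 0.0369, 0.237 and 0.179 FPKM in NEC, and the immunoglobulin heavy chain gene Ighm at 16.8, 21.02 and 20.6 and 0.770, 1.83 and 0.691 FPKM (-3.32 ± 0.21 SE, adjusted p = 0.000873). Cd79a and Cd79b passed the filter through the controls only, so they had to differ and their tests add no support. Of 20 T cell genes all but 1 were below the filter, and the T cell receptor subunit Cd3e stood at 0.132, 0.205 and 0.103 FPKM in the controls and 0.0395, 0 and 0.0959 FPKM in NEC.

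Macrophage genes fell in 6 of 11 tested members and rose in 0 (median of -0.58, 4 to 6 falls when any 1 library was left out). With total reads as the scale 12 were tested, 2 rose and 5 fell (median of -0.11). With the deposited FPKM 1 rose and 5 fell (median of -0.27). Csf1r, the receptor on which macrophages depend, stood at 73.7, 68.1 and 62.4 FPKM in the controls and 14.4, 18.7 and 20.5 FPKM in NEC (-1.88 ± 0.16 SE, adjusted p = 0.00121), and the lysozyme gene Lyz2 at 18.2, 22.0 and 20.9 and 7.31, 9.48 and 7.43 FPKM (-1.24 ± 0.14 SE, adjusted p = 0.00214). The complement gene C1qa, a defining marker, stood at 17.2, 12.6 and 17.4 and 9.67, 11.9 and 8.90 FPKM. Its call held in 2 of 6 fits with a library left out and in 7 of 13 other alternatives.

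Defining neutrophil markers and the main inflammatory cytokines were near 0 in both groups. Of 18 neutrophil genes, which summed to 10.5 to 18.4 FPKM in the controls and 7.45 to 13.5 FPKM in NEC, 2 were tested. The protease Mmp9 did not pass (0.45, adjusted p = 0.299), and lactoferrin, Ltf, which epithelia also make, fell from 7.92, 8.502 and 4.40 to 0.374, 2.70 and 3.51 FPKM (-1.44 ± 0.45 SE, adjusted p = 0.0415), a call that held in 2 of 6 fits with a library left out. The defining markers stood at 0.290, 0.301 and 0.202 FPKM in the controls and 0.0775, 0.166 and 0.188 FPKM in NEC for the calprotectin subunit S100a8, at 0.242, 0.270 and 0.214 and 0.104, 0.159 and 0.0722 for Csf3r, and at 0, 0.0457 and 0 and 0, 0.0566 and 0.0214 for Cxcr2. Of 34 cytokines and chemokines 10 were tested, 2 rose and 1 fell. The inflammatory cytokine Il1b stood at 0.106, 0 and 0 FPKM in the controls and 0.0564, 0.392 and 0.137 FPKM in NEC, Tnf at 0.246, 0.213 and 0.171 and 0.197, 0.140 and 0.119 FPKM, and Il6 was listed at 0 in 5 of 6 libraries and at 0.0474 FPKM in CKO NEC library 2. None of these 3 genes reached the filter, and at this depth no rise was detectable. The chemokine Ccl28, which draws IgA-secreting cells, rose from 1.26, 1.35 and 1.67 to 4.62, 3.94 and 5.33 FPKM (1.21 ± 0.14 SE, adjusted p = 0.00233), and the interleukin gene Lif fell from 2.93, 2.58 and 3.04 to 1.24, 1.48 and 1.81 FPKM (-0.62 ± 0.14 SE, adjusted p = 0.0135).

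Innate receptor and NF-kappaB genes fell in 9 of 20 tested members and rose in 2 (median of -0.37). With total reads as the scale 6 rose and 4 fell (median of 0.06), so the list's direction rests on the scale. Ly96, the coreceptor of TLR4 for lipopolysaccharide, stood at 8.42, 15.1 and 15.5 FPKM in the controls and 2.79, 3.15 and 3.51 FPKM in NEC (-1.71 ± 0.23 SE, adjusted p = 0.00312), and Sigirr, a brake on such receptors, at 32.0, 28.6 and 24.0 and 10.3, 11.7 and 14.9 FPKM (-1.14 ± 0.17 SE, adjusted p = 0.00422). Tlr4 itself was below the filter, at 0.351, 0.514 and 0.278 FPKM in the controls and 0.503, 1.397 and 0.739 FPKM in NEC. The falls numbered 5 without CKO NEC library 2.

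Unfolded protein response genes fell in 12 of 26 tested members and rose in 1 (median of -0.49), Ern2, which passed the filter through NEC only. With total reads or quantile normalization as the scale 6 fell and 2 rose (medians of -0.17 and -0.16). The chaperone Hspa5 stood at 133, 201 and 195 FPKM in the controls and 78.2, 75.3 and 60.6 FPKM in NEC (-1.28 ± 0.21 SE, adjusted p = 0.00531), and the stress-induced factor Ddit3 at 22.5, 25.5 and 48.5 and 9.26, 7.75 and 9.82 FPKM (-1.66 ± 0.28 SE, adjusted p = 0.00552). Without CKO control library 2 or 3 the falls numbered 7. Of 34 tested cell death genes 2 rose (Ripk3, and Bcl2, which passed the filter through NEC only) and 10 fell (median of -0.30), but 7 rose and 2 fell with total reads as the scale (median of -0.01). The call of Bcl2 held in 0 of the 3 fits with a library left out in which it was tested. The inflammatory caspase Casp1 fell from 87.7, 99.9 and 112 to 36.5, 51.2 and 49.0 FPKM (-1.13 ± 0.18 SE, adjusted p = 0.00501), and the necroptosis kinase Ripk3 rose from 8.06, 8.02 and 6.16 to 19.1, 16.1 and 14.6 FPKM (1.07 ± 0.15 SE, adjusted p = 0.00380). The falls numbered 3 without CKO NEC library 1 or 2, 5 without CKO control library 2 and 6 without CKO control library 3.

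Tight and adherens junction genes showed no shared direction: 4 of 23 tested rose and 4 fell, against 17.5% and 20.4% of all genes. Their median was -0.03, and 7 rose and 2 fell with total reads as the scale. Leaving out any one control or CKO NEC library 1 gave 2 rises and 2 falls, leaving out CKO NEC library 2 gave 3 and 2, and leaving out CKO NEC library 3 gave 2 and 5. Claudin 8, Cldn8, which tightens the paracellular path, fell from 69.0, 88.8 and 48.6 to 19.1, 19.7 and 34.1 FPKM (-1.47 ± 0.29 SE, adjusted p = 0.00890). Transcripts encoded by the mitochondrial genome fell in 6 of 13 genes (median of -0.95) and took 6.24, 6.76 and 5.11% of reads in the controls and 4.43, 3.47 and 4.37% in NEC. The complex I subunit gene mt-Nd3 stood at 125, 161 and 156 FPKM in the controls and 62.7, 47.1 and 64.8 FPKM in NEC (-1.33 ± 0.18 SE, adjusted p = 0.00358). The 6 falls became 1 without CKO control library 2, 2 without CKO control library 1 or CKO NEC library 2 and 3 without CKO control library 3 or CKO NEC library 1. With quantile normalization 1 fell (median of -0.01). Nuclear genes of oxidative phosphorylation had 0 of 24 members past the threshold by limma (median of -0.05), and 8 rose with total reads as the scale. Cytosolic ribosomal protein genes rose in 6 of 24, against 17.5% of all genes (median of 0.41). The count was 20 with total reads as the scale and 0 to 5 when any 1 library was left out.

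**Figure D4:**
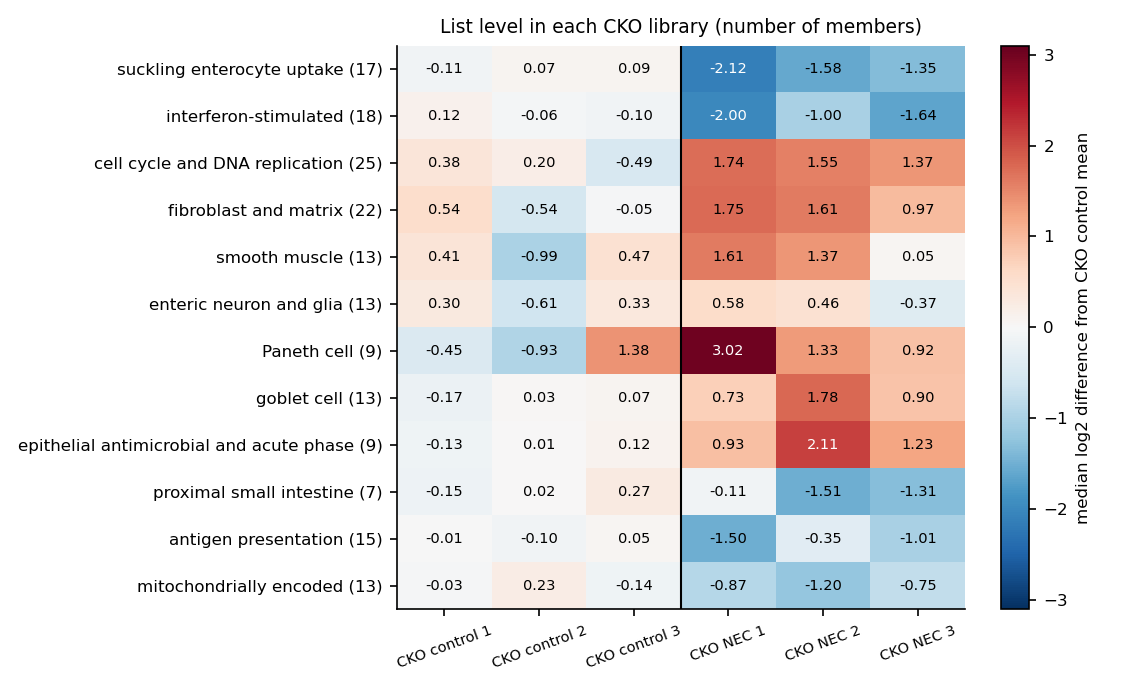
Level of 12 gene lists in each CKO library, as the median over tested members of the log2 difference from the CKO control mean (colour and printed value). Suckling uptake, interferon, cell cycle and matrix lists part the groups in every library, while smooth muscle in CKO NEC library 3, Paneth genes in CKO control library 3 and proximal genes in CKO NEC library 1 do not follow their group.

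Some of the largest falls lay outside these lists. Smcp, best known from sperm mitochondria, stood at 145, 123 and 136 FPKM in the controls and 0.471, 3.40 and 3.28 FPKM in NEC (-5.48 ± 0.40 SE, adjusted p = 0.000990). Fndc5, the precursor gene of irisin, stood at 78.3, 75.5 and 56.9 and 2.18, 4.52 and 4.53 FPKM (-3.94 ± 0.25 SE, adjusted p = 0.000873), and Dio1, which activates thyroid hormone, at 72.8, 76.1 and 89.3 and 4.37, 5.81 and 9.89 FPKM (-3.44 ± 0.25 SE, adjusted p = 0.000991). The groups of all 3 genes lay far apart. Lect2 and the creatine synthesis enzyme Gatm changed by -4.40 ± 0.42 and -3.96 ± 0.42 (adjusted p of 0.00150 and 0.00193). Gpx3, a secreted peroxidase, stood at 8805, 9721 and 14749 FPKM in the controls and 739, 1748 and 2559 FPKM in NEC (-2.86 ± 0.52 SE, adjusted p = 0.00708). Spp2, a secreted phosphoprotein, was at 93.3, 127 and 259 and 8.46, 6.20 and 30.1 FPKM (-3.51 ± 0.59 SE, adjusted p = 0.00569). Among abundant rises, Adamdec1, a protease of the lamina propria, went from 193, 138 and 95.2 to 329, 409 and 480.0 FPKM (1.55 ± 0.29 SE, adjusted p = 0.00744). Fkbp5, a gene induced by glucocorticoids, rose from 0.780, 0.581 and 2.83 to 15.5, 8.10 and 7.07 FPKM (2.27 ± 0.39 SE, adjusted p = 0.00616). Of the other abundant genes, Actg2 (2.18), Lgals2 (1.06) and Atp1b1 (1.05) rose and Apoa1 (-1.56), Fth1 (-1.14), mt-Nd4 (-1.02) and mt-Nd2 (-1.02) fell (limma, adjusted p of 0.0158 to 0.0397), but each of these 7 calls was lost when at least 1 library was left out. The Lgals2 call was lost without CKO control library 1, that of Actg2 without CKO control library 2 or CKO NEC library 1 or 2 and that of Atp1b1 without CKO control library 1 or 2 or CKO NEC library 1. The 4 falls were lost without any one control and without CKO NEC library 2, and 3 of them, all but mt-Nd2, without CKO NEC library 1.

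The NEC response of the knockout bowel was then set against that of the flox bowel, as the difference of both log2 changes in 1 fit of all 12 libraries. Of 14609 genes tested, 113 (0.773%) passed the threshold by limma, 21 (0.144%) with a higher response in CKO and 92 (0.63%) with a lower one, and 3027 had an unadjusted p under 0.05. Among the 5059 genes called in CKO, 39 passed. The flox changes of the genes above stood beside those in CKO at 5.57 for Dmbt1, 5.82 for Sis, 2.81 for Pigr, -3.79 for Ctsl, -5.22 for Isg15 and 1.37 for Col1a1, and none of these 6 differences of response passed (adjusted p of 0.237 to 0.885). That a difference did not pass does not show that the responses were alike, since the median SE of the difference was 0.23.

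In the 5 genes with the smallest p in each direction, a choice that fixes their even split between directions, the flox controls stood apart. Magi3, a junction scaffold, was at 7.99, 7.74 and 7.51 FPKM in CKO control, 9.10, 9.22 and 9.76 in CKO NEC, 3.74, 4.16 and 4.30 in flox control and 9.80, 10.3 and 10.4 in flox NEC, a difference of response of -0.90 ± 0.12 SE (adjusted p = 0.0385). Hnf4g, an enterocyte nuclear receptor, was at 40.3, 44.7 and 40.02, then 47.4, 51.6 and 47.0, then 13.5, 11.99 and 17.2 and then 45.4, 53.2 and 39.4 FPKM in the same order of groups (-1.41 ± 0.20 SE, adjusted p = 0.0385). In both genes the flox controls were the low group and the other 3 groups were close together. Apoc1, an apolipoprotein, fell in both genotypes and less so in CKO, from 2.26, 2.15 and 3.02 to 1.23, 1.08 and 1.23 FPKM against 5.09, 5.86 and 4.59 to 0.441, 0.588 and 0.522 FPKM in flox (1.36 ± 0.18 SE, adjusted p = 0.0385). Mitochondrially encoded transcripts also took more reads in flox control than in CKO control (11.1 to 14.3% against 5.11 to 6.76%), and the part of this in the calls was not tested. The calls depended on single libraries. Without flox control library 1 there were 0. Without flox control library 3 there were 114 higher and 421 lower, without CKO control library 3 there were 85 and 203, and without CKO NEC library 3 there were 9 and 35. Without any one of the other 8 libraries there were at most 2 higher and 1 lower.

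**Figure D5:**
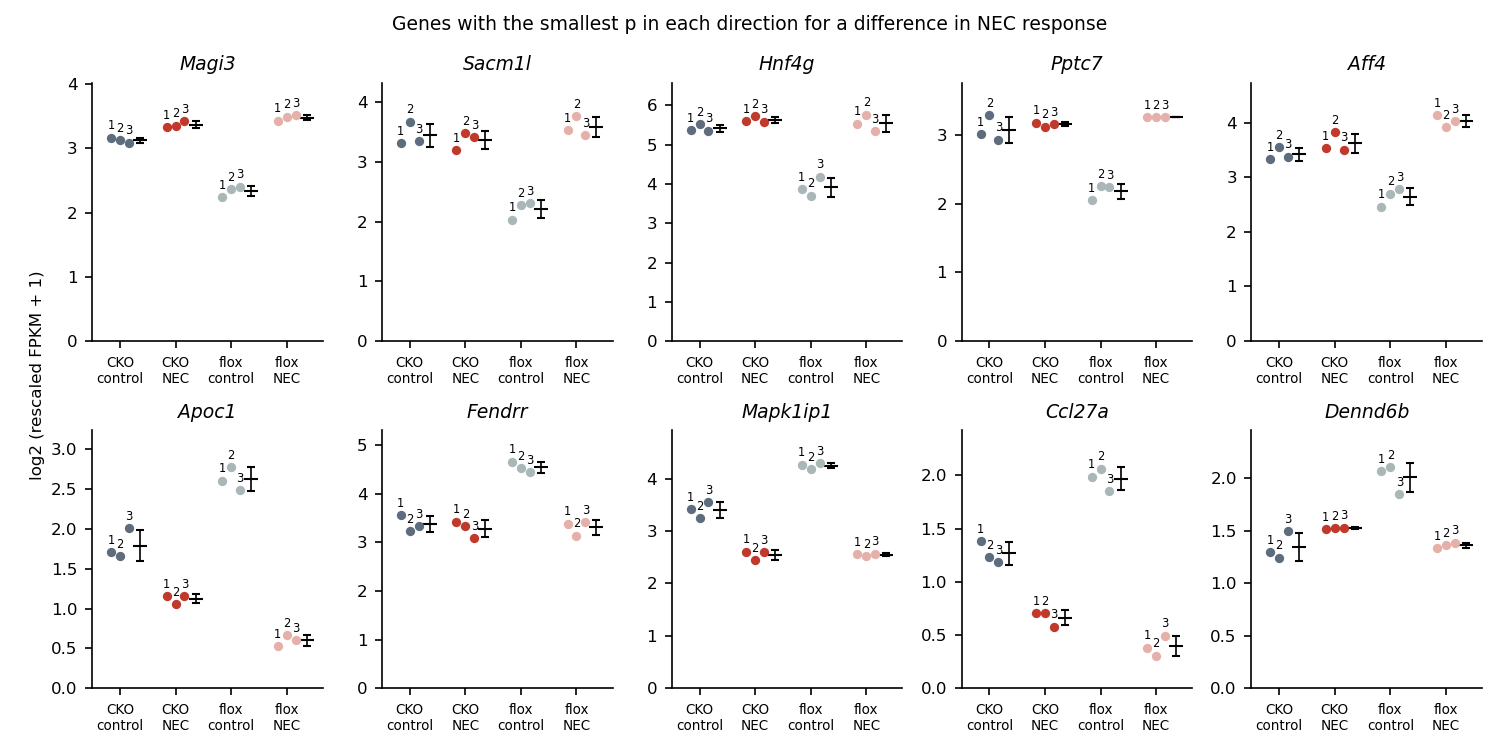
Level of the 5 genes with the smallest p in each direction for a difference of NEC response between genotypes (vertical axes, log2 of rescaled FPKM + 1) in each of the 4 groups; points are libraries with their replicate number, and bars are the mean with the SD of 3 libraries. In the 5 genes of the upper row the flox controls lie under the other 3 groups, and in the 5 of the lower row they lie above them.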

How the data were processed

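Bulk RNA-seq of small intestine was analysed for 6 of 12 libraries, with the flox libraries as a comparison. The authors deposited FPKM per gene, with gene length, in 2 tables that split the libraries by condition, per the file headers. Aligner, counter and genome build: not given in the sources used here. Of 54532 genes, 53499 (98.3%) had the coordinates of GENCODE M21 (GRCm38). RNA was isolated with Trizol and libraries were made with an NEBNext kit, per the labels' protocols.

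FPKM times gene length, divided by a library's smallest step, gave whole reads for 100% of values (within 0.05 of a whole number), between 13057724 and 16821130 per library. These were rescaled by median-of-ratios factors over all 12 libraries; the NEC table's deposited scale lay 0.15 (log2) above the control table's. log2 (rescaled FPKM + 1) was tested with limma 3.58.1 (R 4.3.3) with a mean-variance trend, two-sided, after a filter of at least 1 FPKM in at least 3 libraries. The planned count tests were not used, since the unit deposited is FPKM. Scripts were tested on simulated data. Python 3.11.15 was used for the rest.

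The members and gene lists were chosen with earlier results of these data known. Named genes were the 12 largest rises and 12 largest falls without overlap of the groups and with a group mean of at least 5 FPKM, the 6 most abundant changes of at least 2-fold in each direction, the 5 smallest p of the difference of responses in each direction, up to 5 members with the smallest p and the defining markers of each list, Piezo1 and the genes of CaMKII. Some of these only are printed, and a few are not reported here. Genes named that did not pass the threshold, and a few others, were added with their values known. Replicate numbers were not taken as pairs: same-numbered CKO libraries had correlations of deviations from the group mean of 0.12, -0.02 and 0.01. Alternatives covered scaling, pseudocount, filter, replicate block, variance trend, library weights, limma-voom and each library left out.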

Additional observations from a re-analysis of the deposited data

Results flagged for a closer look

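In 113 genes the NEC response differed between genotypes by the test of the difference itself, 21 with a higher and 92 with a lower response in CKO. The 5 with the smallest p in each direction are given here (limma, adjusted p of 0.0385 to 0.0481). The response in CKO was lower than in flox by -0.90 (log2) in Magi3, -1.46 in the phosphoinositide phosphatase Sacm1l, -1.41 in Hnf4g, -1.003 in the mitochondrial phosphatase Pptc7 and -1.17 in the elongation factor Aff4. In all 5 the flox controls stood lowest; Sacm1l, for example, was at 3.09, 3.84 and 3.97 FPKM in flox control, 10.6, 12.7 and 9.95 in flox NEC, 8.93, 11.8 and 9.23 in CKO control and 8.20, 10.2 and 9.66 in CKO NEC. The response in CKO was higher by 1.36 in Apoc1, 1.13 in the long noncoding RNA Fendrr, 0.84 in Mapk1ip1, 0.97 in the chemokine Ccl27a and 0.83 in Dennd6b. In these 5 the flox controls stood highest; Fendrr was at 24.2, 21.9 and 20.7 FPKM in flox control, 9.42, 7.79 and 9.65 in flox NEC, 10.7, 8.39 and 9.09 in CKO control and 9.75, 9.04 and 7.48 in CKO NEC. Without flox control library 1 no gene passed (0 against 113), and the groups of 3 libraries were not tested for single outlying samples.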

How the results depend on the processing

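The 2332 rises and 2727 falls became 4264 and 1528 with total reads as the scale and 1159 and 2061 at a mean of at least 5 FPKM, where fewer genes (7568) were tested. Leaving out 1 library gave 1250 to 1899 rises and 1690 to 2635 falls. The other alternatives stayed within 1.5 times, among them 2430 and 2585 with trimmed-mean scaling, 3140 and 2062 with the deposited FPKM and 2437 and 2772 with limma-voom. The 21 higher and 92 lower differences of response became 32 and 57 with total reads, 91 and 156 with quantile normalization, 3 and 3 without a filter, 78 and 266 at a mean of at least 5 FPKM, 3 and 0 without a variance trend and 211 and 686 with library weights. The lower ones numbered 162 with trimmed-mean scaling, 150 with the deposited FPKM and 147 with limma-voom. Leaving out 1 library gave 0 to 114 higher and 0 to 421 lower. The causes were not tested. With the replicate number as a block, which does not pair these libraries, 2068 rose and 2558 fell, and 0 and 0 differences of response passed. Medians changed sign for fatty acid oxidation (0.11 with total reads, 0.12 with quantile normalization), innate receptors (0.056 with total reads) and injury-response genes (-0.084 at a mean of at least 5 FPKM). Medians nearer 0 also changed sign with total reads and with quantile normalization. They were 0.28 and 0.35 for junctions, 0.26 and 0.31 for nuclear oxidative phosphorylation and 0.18 and 0.34 for bile acid handling. For Ca2+ and CaMKII genes they were 0.26 and 0.12, for immediate early genes 0.19 and 0.07 and for defining epithelial genes 0.24 and 0.37. The mesothelium median was -0.0048 with quantile normalization. Without a filter the calls of Alpi, Cdhr5, Gpx3, Lgmn, Reg3b, Reg3g, Lyz1, Actg2, Atp1b1, Apoa1, Fth1, mt-Nd4, mt-Nd2, C1qa, Ltf, Fgf15 and Bcl2 were lost. The planned edgeR and DESeq2 tests were not run, since the deposited unit is FPKM. Depth limits genes under 1 FPKM, which were not tested.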

Other observations

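Epidermal growth factor ligands rose in CKO NEC. Areg (amphiregulin) went from 2.05, 2.47 and 5.84 to 17.97, 8.14 and 12.3 FPKM (1.67 ± 0.36 SE, adjusted p = 0.0125) and Ereg (epiregulin) from 0.814, 1.25 and 1.57 to 6.10, 3.09 and 3.54 FPKM (1.22 ± 0.24 SE, adjusted p = 0.00876), while the secreted chaperone Clu fell from 5.39, 5.21 and 9.77 to 2.11, 2.54 and 1.19 FPKM (-1.38 ± 0.27 SE, adjusted p = 0.00833). They belong to a list of 19 tested genes of injury-response epithelium and YAP targets, of which 8 rose and 3 fell, and 4 or 5 rose without CKO control library 1 or 2 or CKO NEC library 1 or 2. Among matrix-cleaving proteases Mmp2 rose from 15.2, 8.58 and 8.57 to 26.0, 31.8 and 29.7 FPKM (1.399 ± 0.22 SE, adjusted p = 0.00498). The groups of these 4 genes did not overlap, as held for 25.0% (higher) and 28.6% (lower) of all genes tested.

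Genes of hypoxia and glycolysis went both ways, with 7 of 26 tested members higher and 4 lower. With total reads as the scale 12 rose and 2 fell, and without CKO NEC library 1 there were 4 rises and 2 falls of 25 tested, without CKO NEC library 2 there were 5 and 2. One of the 7, Hk2, passed the filter through NEC only. The glycolytic enzyme Pgk1 rose from 73.1, 88.4 and 77.5 to 147, 122 and 142 FPKM (0.77 ± 0.15 SE, adjusted p = 0.00912) and the kinase Pdk1, which holds pyruvate back from mitochondria, from 2.64, 2.79 and 2.18 to 7.65, 6.10 and 6.996 FPKM (1.16 ± 0.13 SE, adjusted p = 0.00206). The hypoxia targets Bnip3 and Ankrd37 fell, from 15.1, 18.9 and 16.2 to 3.66, 5.03 and 7.83 FPKM and from 14.4, 12.9 and 19.5 to 3.28, 3.85 and 4.32 FPKM (adjusted p of 0.00476 and 0.00161). Of 20 genes of fatty acid oxidation and ketogenesis 1 rose and 6 fell, and the fall of Hadh, an enzyme of beta-oxidation, was from 178, 175 and 184 to 91.6, 76.3 and 114 FPKM (-0.94 ± 0.18 SE, adjusted p = 0.00862). Catalase, Cat, fell from 372, 339 and 544 to 104, 139 and 226 FPKM (-1.45 ± 0.32 SE, adjusted p = 0.0132). Transthyretin, Ttr, which is also a hepatocyte product, fell from 249.8, 255 and 102 to 14.1, 29.7 and 56.2 FPKM (-2.66 ± 0.54 SE, adjusted p = 0.00965).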
